A study of Mus musculus with 4 samples.

Results

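The 9 nuclear genes Uqcrc1, Uqcrc2, Uqcrfs1, Uqcrb, Uqcrh, Uqcrq, Uqcr10, Uqcr11 and Cyc1 encode structural subunits of mitochondrial complex III. They were taken by gene symbol from 47445 genes in all, and each symbol had 1 gene identifier. The series depleted Uqcc3, an assembly factor of the same complex, in mouse embryos and profiled their RNA. The 2 Uqcc3 siRNA libraries came from C57BL/6N embryos given an siRNA against Uqcc3 at 5 µM and 8 hpi, per the labels' protocols. The 2 control libraries came from embryos of the same strain injected with a negative-control siRNA at that dose and time, per the same protocols, although the treatment label of these samples reads "none". The females were 8 weeks old, and all libraries were made from embryos of normal morphology at the late 2-cell stage. How many embryos went into each library was not given in the sources used here, and nothing in the labels says that the libraries of a group came from separate mice or days. The p-values given here rest on the spread between libraries of a group, and that spread may be technical.

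Complex III, or cytochrome bc1 complex, takes electrons from ubiquinol, hands them to cytochrome c and pumps protons across the inner mitochondrial membrane. Cytochrome b (mt-Cytb) is encoded in mitochondrial DNA, and all other subunits come from nuclear genes and are imported. The cleavage-stage mouse embryo relies on pyruvate oxidation in mitochondria inherited from the oocyte, and its transcripts at the late 2-cell stage are a mixture of maternal RNA and RNA from the newly active zygotic genome.

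The targeted gene was checked first. Uqcc3 stood at 23.7 and 19.8 FPKM in the Uqcc3 siRNA libraries and at 147 and 211 FPKM in the controls. The means were 21.7 ± 2.73 FPKM with siRNA and 179 ± 44.9 FPKM in controls (SD, n = 2 each), so that 12.1% of the control mean was left. FPKM scales fragments to transcript length and to the number of mapped fragments, so levels of different genes are compared per length. Uqcc3 siRNA replicate 2 stood apart from the other libraries. Across genes, its log2 values correlated with those of the others at 0.624 to 0.651, against 0.867 to 0.875 among the remaining 3 libraries. It had 9771 genes at 1 FPKM or more, against 11818 to 12202 in the others. The tables give no counts, and the bounds around the values implied about 11200000 and 11600000 fragments in Uqcc3 siRNA replicates 1 and 2 and 16200000 and 18200000 in control replicates 1 and 2. Of 11 markers of the 2-cell stage found in the files, 10 and 7 reached 1 FPKM in the siRNA libraries and 9 and 10 in the controls. Their summed level was 545.7 and 300.3 FPKM with siRNA, against 649.7 and 1060.2 FPKM in controls, lower in both siRNA libraries before scaling between libraries. Median-of-ratios scaling divides the siRNA libraries by 0.872 and 0.943 and the controls by 1.28 and 1.16. With these factors the marker sum of Uqcc3 siRNA replicate 1 lies above that of control replicate 1. The groups then overlap, so the order depends on the scaling. Of 9 cumulus and granulosa markers at most 2 reached 1 FPKM in a library. Their summed level was 0.849 to 8.20 FPKM with siRNA and 3.47 to 14.1 FPKM in controls, with Amh and Fshr at 0. Of 7 sperm markers at most 2 did so (0.191 to 17.7 FPKM and 5.27 to 7.25 FPKM, with Akap4 at 0). Of 6 blood markers at most 3 did so (0.896 to 23.2 FPKM and 20.4 to 28.5 FPKM, with Hbb-bs at 0). Of 6 markers of later lineages at most 1 reached 1 FPKM (2.18 to 2.23 FPKM and 0.558 to 2.33 FPKM, with Cdx2, Krt8 and Sox17 at 0). The part of these markers in the results was not tested.

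Transcripts of 3 of the 9 subunits lay lower in both Uqcc3 siRNA libraries than in both controls: the core subunit Uqcrc1, the catalytic subunit Cyc1 and the accessory subunit Uqcr10. The other 6 overlapped between the groups, and none lay above both controls. Among all 12390 tested genes, 30.0% were separated downwards in the same way and 8.60% upwards, so 3 of 9 (33.3%) was close to the share of all genes. No subunit passed an adjusted p of 0.05 in limma (smallest adjusted p = 0.745), where 0% of all tested genes passed. At an unadjusted p under 0.05 in limma, 2 of the 9 were lower and none higher, against 5.21% of all tested genes lower, 0.743% higher and 5.96% in either direction. These were Uqcrc1 and Uqcr10. Uqcr10 missed this threshold in limma as TPM, with an unadjusted p of 0.0508 (adjusted 0.910), with median-of-ratios scaling (unadjusted 0.0776), after quantile normalization (0.0814) and without the abundance trend (0.0677). All 9 passed the filter of at least 1 FPKM in at least 2 libraries. In bulk libraries, fewer cells and less RNA per cell cannot be told apart.

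**Figure D1:**
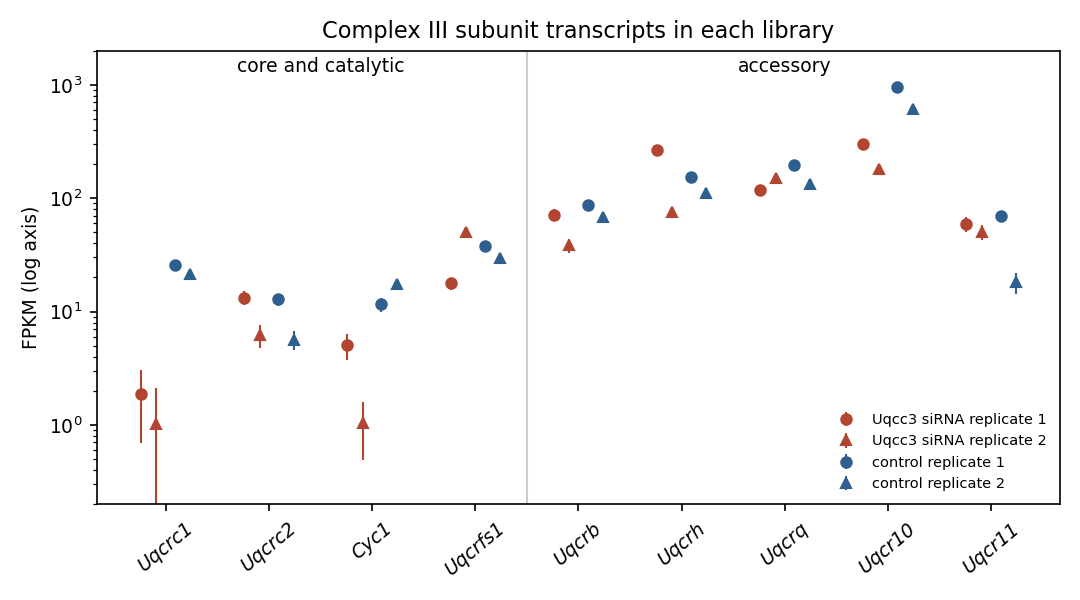
FPKM of the 9 subunit transcripts (log axis) in the 2 Uqcc3 siRNA libraries (red) and the 2 control libraries (blue), with the authors' lower and upper bounds as bars. The lower bound of Uqcrc1 in Uqcc3 siRNA replicate 2 is 0 and leaves the axis. Uqcrc1, Cyc1 and Uqcr10 are the genes whose red and blue points do not overlap.

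The core subunits form the large matrix domain of the complex and are related to the mitochondrial processing peptidase. Uqcrc1 (ENSMUSG00000025651.14, chromosome 9, 108936633 to 108949623 in mm10, plus strand) stood at 1.87 and 1.01 FPKM in Uqcc3 siRNA replicates 1 and 2, against 25.8 and 21.6 FPKM in control replicates 1 and 2. Both siRNA values were far below both controls, and the authors' bounds did not touch: the upper bounds were 3.05 and 2.13 FPKM with siRNA, and the lower bounds 23.3 and 19.2 FPKM in controls. Each bound belongs to 1 library alone and leaves out the spread between libraries. The bounds, read as counting error, implied about 10.0 and 3.25 fragments for Uqcrc1 with siRNA, against 422 and 333 in controls. With 8 annotated transcripts of this gene, the bounds may also hold uncertainty of assignment, which would make these numbers too low. The mean was 1.44 ± 0.607 FPKM with siRNA and 23.7 ± 3.00 FPKM in controls (SD, n = 2 each), so the siRNA mean was 6.08% of the control mean. On the log2(FPKM + 1) scale the difference was -3.36 (SE 0.92), which limma gave an unadjusted p of 0.00689 and an adjusted p of 0.745. By p, Uqcrc1 ranked 39 of 12390. Its place among tested genes was at percentiles 22.8 and 28.1 in the siRNA libraries and 75.1 and 73.0 in the controls.

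Uqcrc2, the partner of Uqcrc1 in the core (chromosome 7, 120635176 to 120659524, plus strand), did not follow it. It stood at 13.3 and 6.19 FPKM with siRNA, against 12.8 and 5.64 FPKM in controls. The groups overlapped almost wholly, and each held 1 higher and 1 lower library. Its log2 difference was 0.08 (SE 0.94, limma adjusted p = 0.991). The ratio of Uqcrc1 to Uqcrc2, which no linear scaling of the libraries changes, was 0.141 and 0.163 in the siRNA libraries, against 2.02 and 3.82 in the controls. An exact permutation test of 2 libraries against 2 cannot give a two-sided p below 0.333, and the ratio was not tested in another way.

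The catalytic subunits carry the redox centres that pass electrons to cytochrome c. Cyc1 (chromosome 15, 76343523 to 76345934, plus strand) encodes cytochrome c1, which holds a heme. It stood at 5.04 and 1.04 FPKM with siRNA, against 11.5 and 17.5 FPKM in controls. Both siRNA libraries were lower, with a 4.83-fold gap between them. The log2 difference of Cyc1 was -2.12 (SE 1.01), with an unadjusted p of 0.0704 and an adjusted p of 0.745 in limma.

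Uqcrfs1 (chromosome 13, 30540308 to 30545362, minus strand) encodes the Rieske iron-sulfur protein, which is added late in assembly. It stood at 17.7 and 50.8 FPKM with siRNA, against 37.6 and 29.5 FPKM in controls. The siRNA libraries lay on either side of both controls, and the log2 difference was -0.14 (SE 0.77, limma adjusted p = 0.976). Its sign turned after scaling between libraries (0.28 as TPM, which rescales each library to 1 total). The ratio of Uqcrfs1 to Cyc1 was 3.51 and 48.6 with siRNA, against 3.26 and 1.68 in controls.

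Among the 5 accessory subunits, small proteins around the catalytic core, Uqcr10 was the one whose groups did not overlap. Uqcr10 (chromosome 11, 4701973 to 4704342, minus strand) encodes the counterpart of yeast Qcr9. It stood at 300.2 and 183 FPKM with siRNA, against 958 and 616 FPKM in controls, with 859 and 528 implied fragments against 2194 and 1751. Uqcr10 was the most abundant of the 9 transcripts in every library. Its siRNA mean was 30.7% of the control mean, and its log2 difference of -1.71 (SE 0.61) had an unadjusted p of 0.0244 and an adjusted p of 0.745 in limma.

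Uqcrb and Uqcrq contact cytochrome b. Uqcrb (chromosome 13, 66900617 to 66905378, minus strand) stood at 71.8 and 38.3 FPKM with siRNA, against 86.9 and 68.2 FPKM in controls. Uqcrq (chromosome 11, 53427922 to 53430831, minus strand) stood at 118 and 149 FPKM with siRNA, against 197 and 134 FPKM in controls. In both genes 1 siRNA library lay between the controls, and the log2 differences were -0.54 (SE 0.66) and -0.29 (SE 0.60), with adjusted p of 0.851 and 0.920 in limma. That of Uqcrq turned positive after scaling between libraries (0.14 as TPM).

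Uqcrh (chromosome 4, 116066965 to 116075071, minus strand), the acidic hinge protein near cytochrome c1, stood at 267 and 75.6 FPKM with siRNA, against 155 and 112 FPKM in controls. The siRNA libraries lay on either side of both controls and differed by 3.53-fold. Uqcr11 (chromosome 10, 80402997 to 80406830, minus strand), the smallest subunit here with 56 residues, stood at 59.1 and 50.2 FPKM with siRNA, against 69.1 and 18.1 FPKM in controls. Here the spread was among the controls, which differed by 3.82-fold. The log2 differences of Uqcrh and Uqcr11 were 0.11 (SE 0.75) and 0.60 (SE 0.80), with adjusted p of 0.982 and 0.866 in limma.

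**Figure D2:**
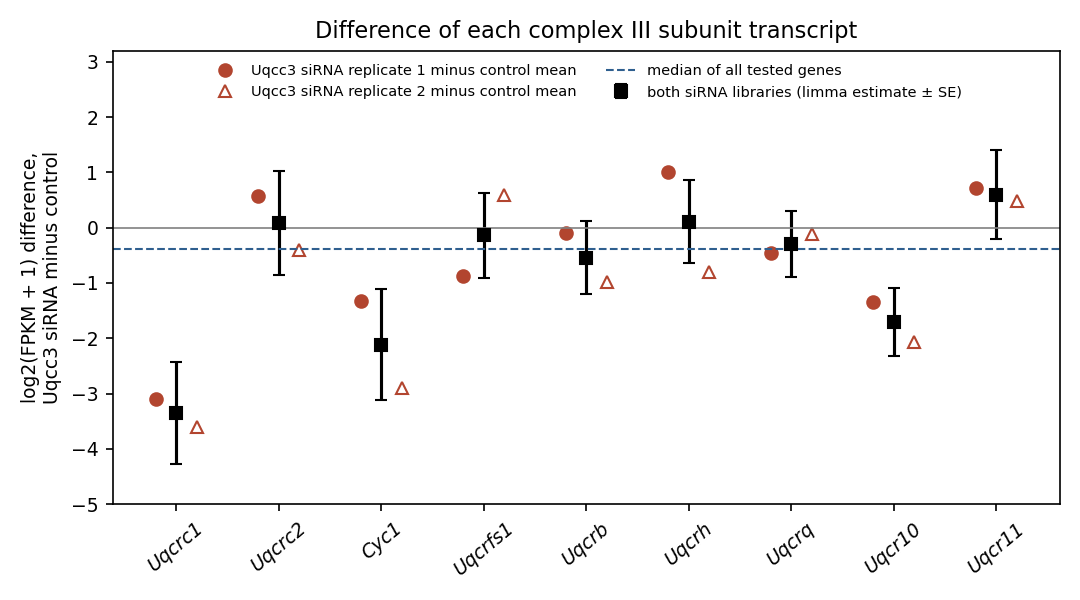
Difference of each subunit transcript on the log2(FPKM + 1) scale, Uqcc3 siRNA minus control. Black squares are limma estimates with SE bars over 2 and 2 libraries, red symbols set each siRNA library against the control mean, and the dashed line is the median of all tested genes at -0.39. Uqcrc1, Cyc1 and Uqcr10 lie well below the line in both siRNA libraries.

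The log2 differences of the 9 genes ran from -3.36 to 0.60 with a median of -0.29, beside -0.39 for all tested genes. In 6 genes the sign was negative and in 3 positive, while as TPM, with median-of-ratios scaling and after quantile normalization 4 were negative and the median was 0.14, 0.13 and 0.23. In Uqcrc1, Cyc1 and Uqcr10 the difference exceeded the wider of the within-group gaps, and in the other 6 it did not. The median gap between the siRNA libraries was 0.89 log2 units for the 9 genes and 1.28 for all tested genes, and that between the controls 0.55 and 0.60. Control replicate 1 was above control replicate 2 in 8 of the 9, with Cyc1 as the exception. In Uqcrc2, Uqcrfs1 and Uqcrh 1 siRNA library was above the control mean and the other below it. For these counts of signs, gaps and replicates the share of all tested genes was not worked out, so they stand without a background.

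Levels in FPKM spanned a wide range within each library. The most abundant subunit exceeded the least abundant by 161-fold and 181-fold in the siRNA libraries and by 83.0-fold and 109-fold in the controls. The least abundant was Uqcrc1 in both siRNA libraries, Cyc1 in control replicate 1 and Uqcrc2 in control replicate 2. In every library Uqcr10, Uqcrq and Uqcrh held the top 3 places, although Uqcrq and Uqcrh changed places in Uqcc3 siRNA replicate 1. In the controls the middle places went to Uqcrb, Uqcr11 and Uqcrfs1, with Uqcrc1 above Uqcr11 in control replicate 2. Over both controls, Uqcr10 was clear of Uqcrq, Uqcrh of Uqcrb, Uqcrfs1 of Uqcrc1, and Uqcrc1 of Cyc1. The values of Uqcrq and Uqcrh overlapped, as did those of Uqcrb and Uqcr11, of Uqcr11 and Uqcrfs1, and of Cyc1 and Uqcrc2.

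The 9 transcripts summed to 853 and 555 FPKM with siRNA, against 1553 and 1023 FPKM in controls, without scaling between libraries. As a share of the library's summed FPKM this was 0.143% and 0.127% with siRNA, against 0.227% and 0.147% in controls. Divided by the median-of-ratios factors given above, the sum in Uqcc3 siRNA replicate 1 lies above that in control replicate 2. The groups then overlap, so the order of the sums depends on the scaling. Uqcr10 made up 35.2% and 32.9% of the sum of the 9 transcripts with siRNA, against 61.7% and 60.2% in controls. Without Uqcr10 the sums were 553 and 372 FPKM with siRNA, against 595 and 407 FPKM in controls, and the groups overlapped. The 4 core and catalytic transcripts held 4.44% and 10.6% of the sum with siRNA, against 5.65% and 7.26% in controls. Uqcrfs1 accounted for most of the core and catalytic sum in Uqcc3 siRNA replicate 2.

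**Figure D3:**
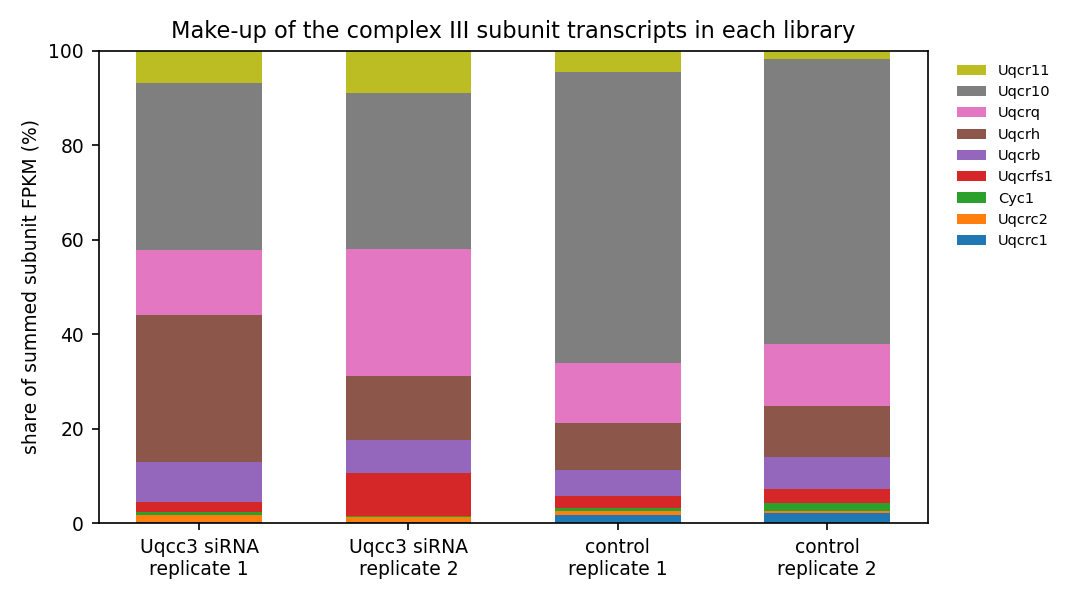
Share of the summed FPKM of the 9 subunits (%) held by each transcript in each library. The Uqcr10 part is 35.2% and 32.9% in the siRNA libraries and 61.7% and 60.2% in the controls.

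Cytochrome b is the subunit encoded outside the nucleus. mt-Cytb stood at 57615 and 3853 FPKM with siRNA, against 44269 and 47540.2 FPKM in controls. It exceeded the median of the 9 nuclear transcripts by 974-fold and 76.8-fold with siRNA, and by 640.3-fold and 1612-fold in controls. The siRNA libraries lay on either side of the controls for the level, and the ratio overlapped between the groups. Mitochondrial mRNAs as a whole took 17.9% and 3.41% of summed FPKM in the siRNA libraries, against 9.98% and 11.8% in the controls.

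The size of the encoded protein divides the 9 genes by role. The coding sequences of the 5 accessory subunits were under 400 nt, and those of the core and catalytic subunits were between 800 and 1500 nt (longest coding sequence in GENCODE M21). The 662 tested genes with a coding length under 400 nt had a median log2 difference of -0.74, with -0.26 in Uqcc3 siRNA replicate 1 and -1.24 in replicate 2. The 5 accessory genes had a median of -0.29, with -0.10 and -0.79. The 3236 tested genes of 800 to 1500 nt had a median of -0.37, with -0.38 and -0.44, and the 4 core and catalytic genes one of -1.13, with -1.11 and -1.65. Short genes in general thus lay lower in Uqcc3 siRNA replicate 2, and the part of length in the values of Uqcr10 was not tested.

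Scaling between libraries did not change which subunits were separated. Uqcrc1, Cyc1 and Uqcr10, and no others, lay below both controls as TPM, with median-of-ratios scaling and after quantile normalization, where 21.4%, 19.1% and 18.7% of all tested genes did. No subunit lay above both under these scalings, where 13.2%, 16.8% and 16.5% of all tested genes did. After median-of-ratios scaling the log2 difference was -3.00 for Uqcrc1, -1.75 for Cyc1 and -1.28 for Uqcr10. Without Uqcc3 siRNA replicate 2 the differences were -3.10 for Uqcrc1, -1.33 for Cyc1 and -1.35 for Uqcr10, and none of them passed in limma (adjusted p = 0.613, 0.637 and 0.613). Leaving out Uqcc3 siRNA replicate 1 sets Uqcc3 siRNA replicate 2 alone against the controls. Uqcrc1 and Uqcr10 then passed (limma adjusted p = 0.0293 and 0.0381), together with 11.9% of all tested genes.

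Other genes that make complex III or work beside it were read from lists. Assembly factors of the complex numbered 7, of which Lyrm7, a chaperone of the Rieske protein, did not pass the filter. Besides the target, none of the 6 tested factors was separated downwards, where 30.0% of all tested genes were. Uqcc2, which acts with Uqcc1 on newly made cytochrome b, stood at 19.99 and 2.696 FPKM with siRNA, against 37.7 and 18.9 FPKM in controls. Uqcc1 stood at 15.3 and 35.4 FPKM with siRNA, against 12.4 and 7.62 FPKM in controls. It was the factor above both, as 8.60% of all tested genes were. Lyrm7 itself was at 0.274 and 0 FPKM with siRNA, against 2.05 and 0.547 FPKM in controls, so its siRNA values were below both controls, at levels too low to be tested. Smim4, which acts in the same early step as Uqcc1 and Uqcc2 in human cells, had 348 and 138 FPKM with siRNA. Its controls had 306 and 524 FPKM. Bcs1l, which inserts the Rieske protein, had 2.43 and 3.38 FPKM with siRNA, against 8.40 and 0.708 FPKM in controls. Ttc19, which clears fragments of the Rieske protein, had 6.55 and 10.9 FPKM with siRNA, against 13.4 and 6.95 FPKM in controls. Smim4, Bcs1l and Ttc19 overlapped between the groups.

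Of the coenzyme Q synthesis genes 10 were tested, and 6 of them (60.0%) lay below both controls and none above, beside 30.0% and 8.60% of all tested genes. Pdss1, which makes the tail of coenzyme Q, stood at 16.9 and 0.505 FPKM with siRNA, against 35.7 and 31.1 FPKM in controls. Coq3, a methyltransferase that acts on the ring, had 3.18 and 3.67 FPKM with siRNA, against 13.5 and 14.4 FPKM in controls. Of the 8 tested genes for other enzymes that reduce ubiquinone, none lay below both controls and 2, Prodh and Gpd2, lay above, on the same background. Prodh, proline dehydrogenase, had 5.08 and 4.27 FPKM with siRNA, against 1.46 and 0 FPKM in controls. Sdhd, a membrane anchor of complex II, had 6.25 and 15.6 FPKM with siRNA, against 10.5 and 0.261 FPKM in controls, and overlapped. The median log2 differences were -0.52 for assembly factors, -1.40 for coenzyme Q synthesis and 0.38 for the ubiquinone-reducing enzymes, beside -0.39 for all tested genes. These counts and medians come from values not scaled between libraries. As TPM, with median-of-ratios scaling and after quantile normalization, 21.4%, 19.1% and 18.7% of all tested genes lay below both controls. The lists were not counted again under these scalings.

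In the other nuclear-encoded complexes, 18 of 36 complex I genes and 16 of 25 genes of complex IV and ATP synthase lay below both controls (64.0% of the genes of complex IV and ATP synthase, beside 30.0% of all tested genes), and 1 gene, Ndufv1 of complex I, lay above, as 8.60% of all tested genes did. Their median log2 differences were -0.85 and -0.68, against -0.29 for the complex III subunits. Among all tested genes, 39.1% of those with a coding length under 400 nt lay below both controls, with a median of -0.74. Of those of 400 to 800 nt 39.6% did, with a median of -0.69. The part of length in the values of these lists was not tested. Ndufb7 of complex I had 6.03 and 7.61 FPKM with siRNA, against 58.2 and 35.8 FPKM in controls. Ndufs8, which holds iron-sulfur clusters of complex I, had 51.6 and 0.572 FPKM with siRNA, against 178 and 129 FPKM in controls. Atp5g1, a gene for the rotor ring of ATP synthase, had 312.6 and 104 FPKM with siRNA, against 757 and 712 FPKM in controls. Cox6a1 of complex IV had 220.1 and 175 FPKM with siRNA, against 517 and 583 FPKM in controls. All 4 of these genes were separated downwards. No gene of these lists passed in limma, and whether the lists differed from each other was not tested. Their counts and medians, too, come from values not scaled between libraries, and scaling may change them.

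**Figure D4:**
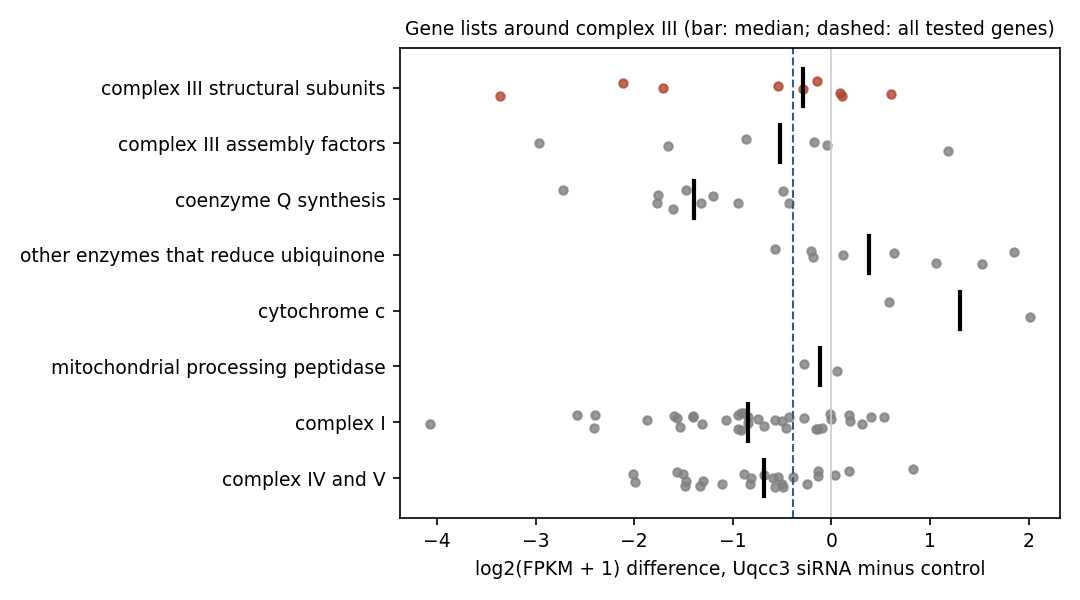
Difference of each tested gene on the log2(FPKM + 1) scale, Uqcc3 siRNA minus control, by gene list, with the list's median as a black bar and the median of all tested genes at -0.39 as the dashed line. The complex III subunits (red) spread from -3.36 to 0.60 around a median of -0.29.

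The transcripts of accessory subunits have close copies in the genome, most of them processed pseudogenes, which bears on how their fragments are assigned. Copies were searched for in GENCODE M21 transcripts by blastn at 85% identity or more over at least 80% of the coding sequence. No copy was found for Uqcrc1, Uqcrc2, Uqcrfs1 or Cyc1, and 4 each were found for Uqcrb and Uqcrh, 3 for Uqcr11, 2 for Uqcr10 and 1 for Uqcrq. The copies of Uqcr10 summed to 0.456% and 1.86% of its FPKM with siRNA, and to 0.877% and 2.02% in controls. Those of Uqcr11 summed to 14.2% and 10.5% with siRNA, and to 24.3% and 24.9% in controls. For Uqcrb, where 3 of the 4 copies are in the files, the shares were 27.3% and 3.07% with siRNA, and 31.2% and 31.3% in controls. For Uqcrh they were 15.0% and 2.30% with siRNA, and 7.89% and 12.6% in controls. The copy Gm9763 of Uqcrh stood at 31.8 and 1.74 FPKM with siRNA, against 6.64 and 8.10 FPKM in controls, and like Uqcrh was highest in Uqcc3 siRNA replicate 1. How fragments were divided between Uqcrb, Uqcrh and Uqcr11 and their copies is therefore uncertain.

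The coding sequence of Uqcr11 is shown beside its closest copy, Gm16418 on chromosome 1, because the pair differs at 2 of 168 bases (98.8% identity). Sequences are from GENCODE M21, 5′ to 3′ on the strand of each gene, with the differing bases in capitals. Counted from the A of the start codon, the copy carries C87T and G116A.
Uqcr11: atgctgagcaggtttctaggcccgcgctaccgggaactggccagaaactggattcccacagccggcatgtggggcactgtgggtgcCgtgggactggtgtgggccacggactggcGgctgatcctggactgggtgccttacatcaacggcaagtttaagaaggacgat
Gm16418: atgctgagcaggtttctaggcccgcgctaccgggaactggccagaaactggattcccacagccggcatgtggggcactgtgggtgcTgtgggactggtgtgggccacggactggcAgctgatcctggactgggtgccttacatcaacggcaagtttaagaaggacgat
Gm16418 was listed at 3.37 and 5.29 FPKM with siRNA, against 11.2 and 4.51 FPKM in controls. A fragment that lies within this stretch and covers neither base matches both genes equally.

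Promoters were available for 5 of the 9 genes in the RefSeq table (GRCm38.p6), from 250 bases before to 50 bases after the annotated start. They are shown for the 120 bases before the start because Uqcrc1 and Uqcr10 were separated between the groups while Uqcrfs1, Uqcrh and Uqcr11 were not. The RefSeq start differs from the gene bounds given above. The stretches of Uqcrc1, Uqcrfs1, Uqcrh and Uqcr11 therefore reach into those bounds. Capitals mark 7-letter cores of factors known for regulating respiratory genes, searched on both strands: GCATGCG for NRF1, CCGGAAG for ETS factors such as GABP, and ATGGCGG for YY1.
Uqcrc1, chr9:108936528-108936647, plus strand: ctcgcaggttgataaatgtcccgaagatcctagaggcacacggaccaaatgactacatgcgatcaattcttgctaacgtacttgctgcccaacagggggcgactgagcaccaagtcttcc
Uqcr10, chr11:4704345-4704464, minus strand: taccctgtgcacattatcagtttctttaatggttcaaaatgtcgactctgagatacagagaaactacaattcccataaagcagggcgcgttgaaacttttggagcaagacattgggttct
Uqcrfs1, chr13:30545317-30545436, minus strand: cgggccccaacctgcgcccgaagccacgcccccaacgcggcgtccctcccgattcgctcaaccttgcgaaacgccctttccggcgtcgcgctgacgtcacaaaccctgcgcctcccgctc
Uqcrh, chr4:116075071-116075190, minus strand: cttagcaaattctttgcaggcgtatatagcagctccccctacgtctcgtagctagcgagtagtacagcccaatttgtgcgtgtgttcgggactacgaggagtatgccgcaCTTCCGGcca
Uqcr11, chr10:80406822-80406941, minus strand: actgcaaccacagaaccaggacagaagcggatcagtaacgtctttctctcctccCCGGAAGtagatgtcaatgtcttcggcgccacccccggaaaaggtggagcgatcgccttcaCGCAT
The ETS core was found in Uqcrh at positions -10 to -4 and in Uqcr11 at -66 to -60, counted from the start, and in 8.86% of all 32851 promoter windows. The NRF1 core was found in Uqcr11 across the start, of which the capitals at the end of its line are the first part, and in Uqcrc1 from 32 to 39 bases after the start, outside the stretch shown. In both genes it matched on both strands, at places 1 base apart that overlap, and 3.58% of all windows hold it. The YY1 core was in none of the 5 and in 4.05% of all windows. Of the separated genes, Uqcrc1 thus held 1 of these cores in its window and Uqcr10 none. Of the overlapping genes Uqcr11 and Uqcrh held at least 1 and Uqcrfs1 none. At least 1 of the 3 cores was in 14.8% of all windows.

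Annotation places other genes over 3 of the 9. Pdzd9 overlaps Uqcrc2, Gm10767 overlaps Uqcrb and Gm12854 overlaps Uqcrh, each on the opposite strand. They stood at no more than 4.41 FPKM in any library. The sources used here do not say that strand was kept, so reads from such a pair may not be told apart.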

How the data were processed

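The data are RNA-seq of 2 Uqcc3 siRNA and 2 control libraries, grouped by the treatment label and numbered in accession order. Full-length cDNA was primed with oligo(dT), amplified by PCR and sequenced from both ends, per the labels' protocols. For each library the authors deposited FPKM per gene with lower and upper bounds, per the file headers. The tools were Cufflinks 2.2.1 and Cuffdiff 2.2.1, besides STAR 2.7.3a, Trim Galore 0.6.5 and SAMtools 1.7, and the build mm10, per the submitters' processing notes. The annotation release was not given in the sources used here.

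Rows that share a gene identifier were summed. Testing took genes that reached 1 FPKM in 2 or more libraries, without 2 whose estimate was marked as failed, which left 12390. Values on the log2(FPKM + 1) scale were tested with limma 3.58.1 in R 4.3.3 (abundance trend, two-sided), Benjamini-Hochberg adjusted over all tested genes, threshold 0.05. This scale understates changes of low genes. The test was tried on simulated data. Fragments behind a value were derived from the authors' bounds, taking the upper bound as 2 Poisson standard deviations above the value. This takes the bounds as counting error only, so it may undercount where a gene has several annotated transcripts. Amplified fragments are not independent molecules. Library depth was the median, over genes with 1 transcript, of what the derived fragments imply. Coding length and copies used GENCODE M21 (99.1% of identifiers matched) and blastn 2.17.0. Alternatives were another pseudocount, filters, scalings, no trend and leaving out each library. The text names the 9 members, the target, mt-Cytb, and all assembly factors, cytochrome c and processing peptidase genes. It also names the 2 genes of each other list with the smallest p, and copies and overlapping genes of the members. The 3 genes of most similar profile are named too, with members and predicted, clone-type, pseudogene or mitochondrial names left out. Other genes named beside a count were chosen after their values were seen. The members and lists were chosen with earlier results of these data known.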

Additional observations from a re-analysis of the deposited data

How the results depend on the processing

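The number of complex III subunits that passed in limma was 0 under all settings that used the 4 libraries, and 0 to 2 when 1 library was left out, with 2 without Uqcc3 siRNA replicate 1. The number passing among all tested genes was 0 to 1477, and among the surrounding lists 0 to 18, with the same exception. The number of subunits below both controls was 3 in every setting with 4 libraries, and 3 to 6 with 1 left out, which can only raise such a count: 6 without control replicate 2 (44.2% of all tested genes), 5 without Uqcc3 siRNA replicate 1 (50.5%), 5 without Uqcc3 siRNA replicate 2 (48.3%) and 3 without control replicate 1 (41.9%). The median log2 difference of the 9 genes turned to 0.14 as TPM, 0.13 under median-of-ratios scaling and 0.23 after quantile normalization, where the median of all tested genes was -0.08, -0.06 and 0.01, and it ranged from -0.79 to -0.02 with 1 library left out. In the order TPM, median-of-ratios and quantile normalization, Uqcrfs1 turned to 0.28, 0.27 and 0.23, Uqcrq to 0.14, 0.13 and 0.24, Bcs1l to 0.36, 0.26 and 0.21, Ttc19 to 0.23, 0.21 and 0.08, and Pmpca to 0.09, 0.08 and 0.06. With a pseudocount of 0.1 Bcs1l was at 0.18 and Pmpcb at -0.01. With 1 library left out, the sign also turned within -0.44 to 0.61 for Uqcrc2, -0.88 to 0.59 for Uqcrfs1, -0.79 to 1.01 for Uqcrh, -0.34 to 1.54 for Uqcr11, -3.57 to 0.33 for mt-Cytb, -1.28 to 1.18 for Bcs1l, -0.61 to 0.25 for Ttc19, -1.57 to 1.67 for Pmpcb and -0.06 to 3.12 for Sdhd. Uqcrc1, Cyc1 and Uqcr10 kept their sign in every setting run, within -3.61 to -3.10, -2.90 to -1.33 and -2.07 to -1.35 with 1 library left out. Outside these ranges lay Uqcrc1 at -4.00 with a pseudocount of 0.1, at -3.00 with median-of-ratios scaling and at -2.96 after quantile normalization, and Uqcr10 at -1.28 as TPM, -1.28 with median-of-ratios scaling and -1.19 after quantile normalization. Where leaving out a library left 1 in a group, that library is assumed to vary like the other group. The cause of these shifts was not tested. No paired analysis was possible because the labels carry no replicate numbers. The low number of fragments implied for Uqcrc1 in the siRNA libraries, which may be an undercount, limits how exactly its level is known there.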

Other observations

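Cytochrome c carries electrons away from complex III. Cycs, the somatic form, stood at 4.32 and 1.97 FPKM with Uqcc3 siRNA, against 1.20 and 2.18 FPKM in controls, and overlapped between the groups. Cyct, the testis form, stood at 5.63 and 8.35 FPKM with siRNA, against 2.82 and 0 FPKM in controls, and lay above both controls, as 8.60% of all tested genes did (log2 difference 2.01, SE 1.05, limma adjusted p = 0.745). The difference of Cyct was 3.69 with a pseudocount of 0.1 and 1.04 without control replicate 2, the library that lists it at 0. Pmpca and Pmpcb, the processing peptidase subunits related to Uqcrc1 and Uqcrc2, are described beside them. Pmpca stood at 4.52 and 4.31 FPKM with siRNA, against 6.10 and 5.08 FPKM in controls. Both siRNA libraries thus lay just below both controls, as in 30.0% of all tested genes. Pmpcb stood at 4.11 and 47.3 FPKM with siRNA, against 13.5 and 14.8 FPKM in controls. Their log2 differences were -0.28 (SE 0.94) and 0.05 (SE 1.13), neither passing in limma (adjusted p = 0.954 and 0.998).

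The median profile of the 9 subunits over the 4 libraries, centred on its mean on the log2(FPKM + 1) scale, was -0.12 and -0.56 with siRNA and 0.64 and 0.05 in controls. The tested genes nearest to it were ranked by root-mean-square distance, leaving out the members and genes with predicted, clone-type, pseudogene or mitochondrial names. The first were Kars, a lysyl-tRNA synthetase, at 0.032, and Nfe2l2, a transcription factor of the antioxidant response, at 0.034. Arpc5l, a subunit of the Arp2/3 complex, followed at 0.037. Among the subunits themselves the distance ran from 0.19 for Uqcrb to 1.34 for Uqcrc1.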
